A study of Sus scrofa with 18 samples.

Results

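The prostanoid receptors are the cell surface receptors for prostaglandins and thromboxane, and the family list taken here held 8 genes. These were PTGER1, PTGER2, PTGER3, PTGER4, PTGFR, PTGIR, PTGDR and TBXA2R. Members were the rows of the expression table whose pig Ensembl gene carried one of these symbols, which gave 7 of the 8 genes among 24358 genes, 14692 of them with a symbol. PTGDR, the receptor for prostaglandin D2, had no such row and was not analysed here. PTGER1 was listed at 0 in all 18 libraries, so 6 receptors had a level and all 6 passed the filter on low values, 1 TPM or more in at least 3 libraries.

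RNA was sequenced from the circular muscle (CM) and the longitudinal muscle (LM) of the mesometrial (M) side of the uterus of Yorkshire gilts. GD12M_CM and GD12M_LM came from 3 naturally mated gilts on day 12 of pregnancy, and GD15M_CM and GD15M_LM from 3 on day 15 of pregnancy. CD15M_CM and CD15M_LM came from 3 unmated, cyclic gilts on estrous cycle day 15 (CD15), which are the non-pregnant controls. Each of the 6 groups therefore had 3 libraries, and each of the 9 gilts gave both layers. The labels name no transgene or drug in any group. The layers were dissected from frozen uterus after the endometrium was scraped off with blades, so a library holds every cell type left in the layer. The mated gilts were judged pregnant by conceptuses in the uterine flushing, and no group held cyclic gilts on day 12.

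Prostanoid receptors are G protein coupled receptors, and the coupling decides what the muscle does. PTGER2 and PTGER4, receptors for prostaglandin E2, PTGIR, the prostacyclin receptor, and PTGDR couple to Gs, raise cyclic AMP and relax smooth muscle. PTGFR, the receptor for prostaglandin F2α, TBXA2R, the thromboxane receptor, and PTGER1 couple to Gq, raise calcium and contract it, and PTGER3, a further receptor for prostaglandin E2, couples mainly to Gi and lowers cyclic AMP. In the pig uterus, endometrial prostaglandin F2α ends the life of the corpora lutea in the cycle, and conceptus and endometrium release prostaglandin E2 in early pregnancy.

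In CM against LM of pregnant gilts, PTGER2 was 3.92-fold higher by group means on GD12 and 5.42-fold on GD15, while PTGER3 was at 0.422 and 0.272 of its LM level. Both genes passed the layer test on both days of pregnancy. In cyclic gilts the same directions were present in every gilt at a smaller size, and no receptor passed. PTGFR was lower in CM of all 9 gilts without reaching the fold limit. Between pregnant and cyclic gilts no receptor passed. In pregnant gilts of both days, PTGIR was above every cyclic library, and PTGER3 and PTGFR in CM below every cyclic library. The share of all genes set apart in this way was not counted, and both days share the same cyclic libraries.

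TPM values are corrected for gene length, but the lengths used are not given in the sources used here. Levels are therefore compared between receptors only as deposited. A wrong length would shift a receptor's rank, its share of a sum and its ratio to another receptor. Across the 18 libraries, PTGER3 averaged 74.9 TPM, PTGFR 32.6 TPM, PTGER2 12.0 TPM, TBXA2R 9.60 TPM, PTGIR 5.28 TPM and PTGER4 4.37 TPM. Of 19740 genes above 0 in any library, 88.4% had a lower mean than PTGER3 and 40.7% a lower mean than PTGER4. PTGER3 ranked first of the 6 receptors in 17 of 18 libraries, and PTGFR second in 16. The remaining first place was that of PTGER2 in GD15M_CM of gilt 2, the library with the lowest summed TPM of smooth muscle markers, 11778.

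The summed TPM of the 6 receptors was 62.4 to 81.5 in GD12M_CM and 112 to 140 in GD12M_LM. It was 70.8 to 111 in GD15M_CM and 143 to 196 in GD15M_LM, and 137 to 154 in CD15M_CM and 164 to 254 in CD15M_LM. In each state the CM libraries lay below the LM libraries of that state. The share of this sum held by PTGER3 and PTGFR together ran from 28.2% to 62.7% in GD15M_CM and from 76.9% to 88.6% in GD15M_LM. It was 50.8% to 69.0% in GD12M_CM, 76.1% to 86.8% in GD12M_LM, 73.9% to 82.4% in CD15M_CM and 86.5% to 92.2% in CD15M_LM. The Gs coupled receptors PTGER2, PTGER4 and PTGIR together made up 24.2% to 63.2% in GD15M_CM, against 6.70% to 17.3% in GD15M_LM. In CD15M_CM they made up 12.4% to 21.5%, against 5.10% to 7.19% in CD15M_LM.

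**Figure D1:**
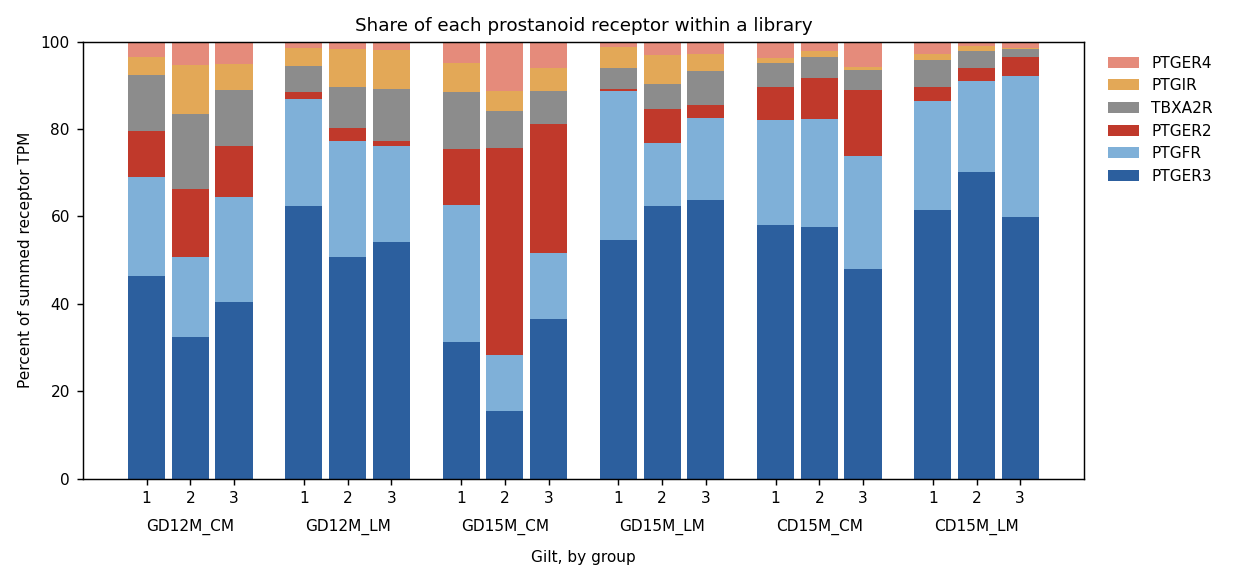
Each bar is a library, numbered by gilt within its group, and the stacked colours are the percent of the summed TPM of 6 prostanoid receptors held by each gene. PTGER3 and PTGFR hold 28.2% to 92.2% of a bar, and PTGER2 reaches 47.4% in GD15M_CM of gilt 2.

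Some libraries stood apart, and their values are set beside the results they touch. Each library summed to 1000000 TPM, 15650 to 17746 genes were above 0, and the read depth is unknown from TPM. In CD15M_LM of gilt 3, 13.4% of the TPM fell on ribosomal protein genes, where the other 17 libraries had 2.82% to 5.02%. MYH11, smooth muscle myosin, stood at 193 TPM there, while gilts 1 and 2 of CD15M_LM had 4207 and 4849 TPM. The summed TPM of 7 epithelial markers was 941 to 2347 in CM and 8.78 to 679 in LM, although the endometrium had been removed. All 7 were called higher in CM in every state by the layer test given below. Of all genes, 13.4%, 10.9% and 11.8% were called higher in CM on GD12, GD15 and CD15. The highest LM sum of these markers was in GD15M_LM of gilt 2, with EPCAM at 25.4 TPM. The summed TPM of 7 smooth muscle markers was 11778 to 33643 in CM and 13672 to 47542 in LM, so the labelled tissue showed its markers in every library. The lowest of these sums was in GD15M_CM of gilt 2. That library also had the lowest sum of 5 fibroblast markers, 13677 TPM, and the most genes above 0, 17746. Of the receptors' own loci, the RefSeq model of PTGER2 overlaps that of PTGDR by 12415 bp and that of PTGER3 overlaps 2 uncharacterized models. The strand setting of the counting is not given in the sources used here, so reads shared by overlapping models cannot be told apart. As these are bulk libraries, fewer cells of a type and less RNA per cell cannot be told apart either.

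The first comparison asked how CM differed from LM of the same gilts. A receptor was called at a Benjamini-Hochberg adjusted p of limma below 0.05 over 15343 genes and an absolute change above 1 on the log2(TPM + 1) scale. On GD12, 1 of 6 receptors was called higher in CM, where 13.4% of all genes tested were, and 1 was called lower, where 2.43% were. On GD15 the counts were again 1 higher and 1 lower, with 10.9% and 3.56% of all genes. On CD15 the count was 0 in either direction, with 11.8% of all genes higher and 0.893% lower, and 3 receptors had an unadjusted p below 0.05, as did 33.2% of all genes. The median change of the 6 receptors was -0.37, -0.32 and -0.15 on the log2 scale on GD12, GD15 and CD15, beside 0.23, 0.19 and 0.33 for all genes.

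**Figure D2:**
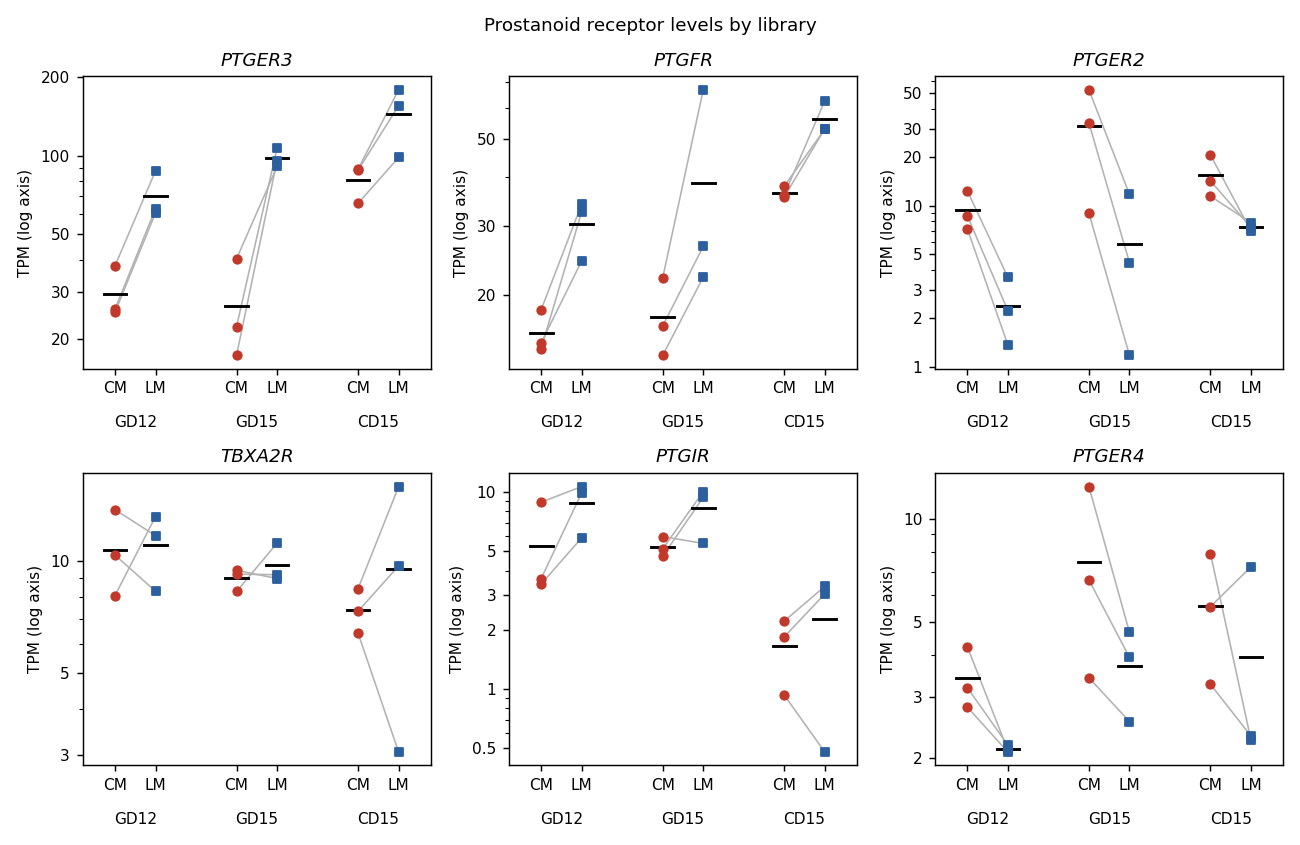
TPM on a log axis is shown for each receptor, with CM (circles) left of LM (squares) in each state, grey lines joining the layers of a gilt and bars at the mean of 3 libraries. The line falls towards LM in 9 of 9 gilts for PTGER2 and rises towards LM in 9 of 9 for PTGER3 and PTGFR.

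PTGER2 (ENSSSCG00000021862, chromosome 1, 181993961 to 182009959 in Sscrofa11.1) is the Gs coupled receptor with the largest layer difference. It had 8.66, 12.4 and 7.19 TPM in GD12M_CM, against 2.23, 3.59 and 1.37 TPM in GD12M_LM. It had 9.005, 52.6 and 32.7 TPM in GD15M_CM, against 1.18, 11.8 and 4.44 TPM in GD15M_LM. In cyclic gilts it had 11.5, 14.3 and 20.7 TPM in CD15M_CM, against 7.85, 7.33 and 6.96 TPM in CD15M_LM. CM was higher in all 9 gilts, by 1.46-fold to 7.63-fold, and the layers overlapped as groups only on GD15, where the gilt with the lowest CM value also had the lowest LM value. The log2 change was 1.64 ± 0.22 (SE, adjusted p = 7.06e-04) on GD12 and 2.30 ± 0.22 (adjusted p = 4.17e-04) on GD15. On CD15 it was 0.94 ± 0.22 (adjusted p = 0.0185), under the fold limit. Without gilt 3 of CD15, whose LM library was high in ribosomal protein genes, the CD15 change was 0.68. The call on GD12 was lost at a pseudocount of 5, where the change was 0.96, and without the gilt block, where the adjusted p was 0.0724.

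The order of the PTGER2 group means was GD15M_CM (31.4 ± 21.8 TPM, SD, n = 3), CD15M_CM (15.5 ± 4.72), GD12M_CM (9.41 ± 2.67), CD15M_LM (7.38 ± 0.451), GD15M_LM (5.80 ± 5.42) and GD12M_LM (2.40 ± 1.12). The ranges of all 5 neighbouring pairs in that order overlapped. On GD15, gilt 1 had the lowest level in both layers and gilt 2 the highest in both.

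Markers of other cell types are set beside PTGER2 here. Within LM, PTGER2 was lowest (1.18 TPM) in the library with the lowest epithelial marker sum, 8.78 TPM. It was highest (11.8 TPM) in the library with the highest epithelial sum, 679 TPM. Within CM, PTGER2 was 9.005 TPM at the highest epithelial sum of 2347 TPM and 32.7 TPM at the lowest epithelial sum of 941 TPM. The summed TPM of 4 endothelial markers was highest, 214, in GD15M_CM of gilt 2, where PTGER2 was also highest. The summed TPM of 5 T cell markers was 13.0, 56.9 and 104 in GD15M_CM, and PTGER2 was low in the first of these libraries and high in the others. All 5 markers were called higher in CM on GD15, where 10.9% of all genes were. The part of these cells in the PTGER2 difference was not tested.

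**Figure D3:**
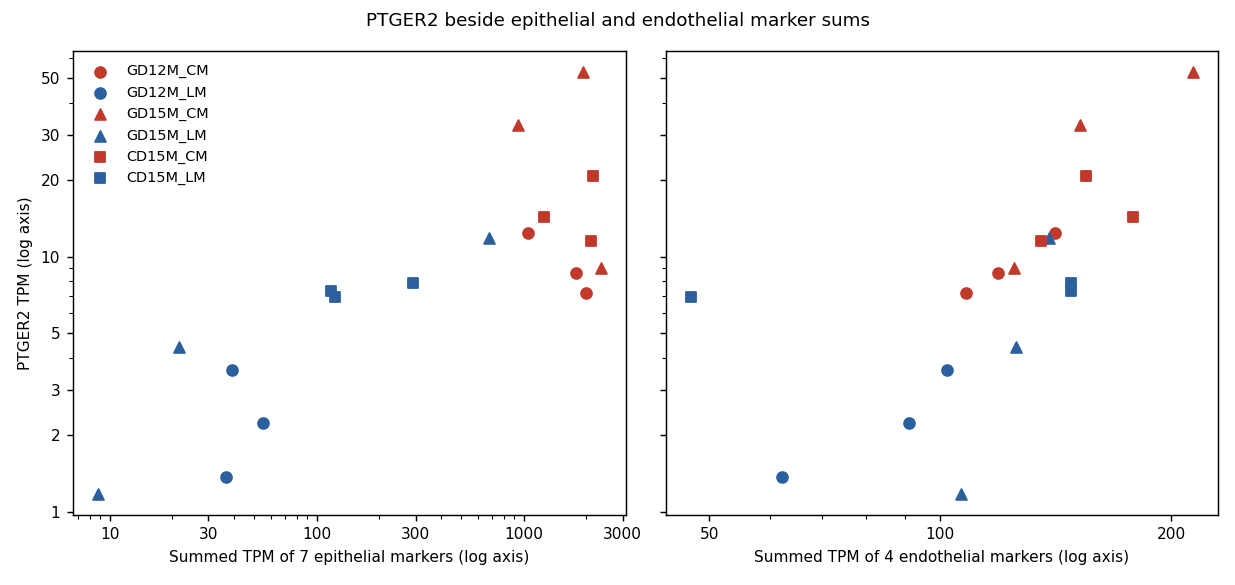
Each point is a library (circles GD12, triangles GD15, squares CD15; red CM, blue LM), with PTGER2 in TPM against the summed TPM of 7 epithelial markers (left) and of 4 endothelial markers (right), all on log axes. In the left panel CM points run from 7.19 to 52.6 TPM over sums of 941 to 2347 TPM, and the LM points at the lowest and highest sums, 8.78 and 679 TPM, are the lowest and highest of LM, 1.18 and 11.8 TPM.

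PTGER4 (ENSSSCG00000024439, chromosome 16, 25670832 to 25686556), the other Gs coupled receptor for prostaglandin E2, had the lowest mean level of the 6. It had 2.81, 4.22 and 3.20 TPM in GD12M_CM, against 2.08, 2.098 and 2.17 TPM in GD12M_LM. It had 3.42, 12.4 and 6.62 TPM in GD15M_CM, against 2.55, 4.66 and 3.93 TPM in GD15M_LM, and 5.53, 3.28 and 7.90 TPM in CD15M_CM, against 7.23, 2.31 and 2.25 TPM in CD15M_LM. CM was above LM in 8 of 9 gilts, the exception being gilt 1 of CD15, and the groups overlapped on GD15 and CD15. The log2 change was 0.49 ± 0.32 (adjusted p = 0.33) on GD12, 0.73 ± 0.32 (adjusted p = 0.152) on GD15 and 0.50 ± 0.32 (adjusted p = 0.304) on CD15. With quantile normalization its sign turned on GD12 and CD15. As with PTGER2, gilt 1 of GD15 had the lowest level of its group in each layer and gilt 2 the highest. The highest group mean was that of GD15M_CM (7.49 ± 4.56 TPM, SD, n = 3) and the lowest that of GD12M_LM (2.12 ± 0.0513 TPM), and the ranges of 4 of the 5 neighbouring pairs overlapped.

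PTGER3 (ENSSSCG00000003788, chromosome 6, 141958955 to 142160437), the Gi coupled receptor for prostaglandin E2, ran the other way. It had 37.9, 25.9 and 25.2 TPM in GD12M_CM, against 87.5, 62.7 and 60.5 TPM in GD12M_LM. It had 22.2, 17.3 and 40.4 TPM in GD15M_CM, against 107, 95.8 and 90.9 TPM in GD15M_LM. In cyclic gilts it had 88.1, 88.8 and 65.8 TPM in CD15M_CM, against 155, 179 and 98.4 TPM in CD15M_LM. All 9 gilts had less PTGER3 in CM, and the layers did not overlap in any state. The ratio of CM to LM within a gilt was 0.413 to 0.433 on GD12, 0.180 to 0.444 on GD15 and 0.497 to 0.668 on CD15.

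PTGER3 fell by 1.22 ± 0.23 on the log2 scale (SE, adjusted p = 0.0051) in CM against LM on GD12 and by 1.93 ± 0.23 (adjusted p = 7.84e-04) on GD15. On CD15 the change was -0.79 ± 0.23 (adjusted p = 0.0453), under the fold limit, and with median-ratio scaling of the libraries it was -1.21 and passed. Without gilt 3 of CD15, whose LM library was high in ribosomal protein genes, it was -0.91. The 2 pregnancy calls held under each of the 12 alternatives run for them, of which dropping the fold limit could not undo a call. The group means were ordered CD15M_LM (144 ± 41.2 TPM, SD, n = 3), GD15M_LM (97.9 ± 8.26), CD15M_CM (80.9 ± 13.1), GD12M_LM (70.2 ± 15.0), GD12M_CM (29.7 ± 7.14) and GD15M_CM (26.6 ± 12.2). Neighbours did not overlap between GD15M_LM and CD15M_CM and between GD12M_LM and GD12M_CM.

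As PTGER2 and PTGER3 bind the same ligand and act on cyclic AMP in opposite directions, their ratio within a library was also taken. PTGER3 stood at 2.09 to 4.38 times PTGER2 in GD12M_CM, against 17.4 to 44.3 times in GD12M_LM. On GD15 the ratio was 0.328 to 2.47 in CM, against 8.14 to 90.7 in LM. In cyclic gilts it was 3.18 to 7.68 in CM, against 14.1 to 24.4 in LM. The CM ratios lay below the LM ratios in each state, and only GD15M_CM of gilt 2 held more PTGER2 than PTGER3.

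PTGFR (ENSSSCG00000039548, chromosome 6, 134727334 to 134777067), the Gq coupled receptor for prostaglandin F2α, was the second most abundant. It had 18.4, 14.6 and 15.1 TPM in GD12M_CM, against 34.2, 32.7 and 24.5 TPM in GD12M_LM. It had 22.2, 14.0 and 16.7 TPM in GD15M_CM, against 67.0, 22.2 and 26.7 TPM in GD15M_LM, and 36.1, 38.0 and 35.7 TPM in CD15M_CM, against 62.8, 53.1 and 53.3 TPM in CD15M_LM. CM was below LM in all 9 gilts with no overlap of the layers in any state, and LM stood 1.40-fold to 3.02-fold above CM of the same gilt. The log2 change was -0.88 ± 0.21 (SE, adjusted p = 0.0161) on GD12, -0.94 ± 0.21 (adjusted p = 0.0136) on GD15 and -0.61 ± 0.21 (adjusted p = 0.0812) on CD15. On GD12 and GD15 the adjusted p was below 0.05 and the change under the fold limit. With median-ratio scaling it was called in all 3 states, at -1.14, -1.12 and -1.01. On GD15 it also passed without gilt 2 (-1.10) or gilt 3 (-1.09). The highest group mean was that of CD15M_LM (56.4 ± 5.54 TPM, SD, n = 3) and the lowest that of GD12M_CM (16.0 ± 2.04 TPM).

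PTGIR (ENSSSCG00000026602, chromosome 6, 52522639 to 52527338), the Gs coupled prostacyclin receptor, was not called between the layers on the deposited scale. It had 3.42, 8.90 and 3.64 TPM in GD12M_CM, against 5.87, 10.7 and 9.93 TPM in GD12M_LM. It had 4.74, 5.16 and 5.95 TPM in GD15M_CM, against 9.42, 10.1 and 5.49 TPM in GD15M_LM. In cyclic gilts it had 1.84, 2.22 and 0.932 TPM in CD15M_CM, against 3.04, 3.33 and 0.479 TPM in CD15M_LM. CM was below LM in 7 of 9 gilts and the layers overlapped in each state. The log2 change was -0.70 ± 0.29 (adjusted p = 0.117) on GD12, -0.54 ± 0.29 (adjusted p = 0.238) on GD15 and -0.18 ± 0.29 (adjusted p = 0.682) on CD15. With quantile normalization PTGIR was called on GD12, at -1.22 (adjusted p = 0.0135). Among the Gs coupled receptors, CM was thus above LM in 9 gilts for PTGER2, 8 for PTGER4 and 2 for PTGIR.

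TBXA2R (ENSSSCG00000033759, chromosome 2, 75068413 to 75081305), the Gq coupled thromboxane receptor, kept no layer direction across gilts. It had 10.4, 13.8 and 8.09 TPM in GD12M_CM, against 8.31, 11.7 and 13.2 TPM in GD12M_LM. It had 9.24, 9.46 and 8.29 TPM in GD15M_CM, against 9.20, 8.99 and 11.2 TPM in GD15M_LM, and 8.45, 7.34 and 6.40 TPM in CD15M_CM, against 15.9, 9.72 and 3.06 TPM in CD15M_LM. CM was above LM in 5 of 9 gilts, and the layers overlapped in every state. The log2 change was -0.05 (95% interval -0.76 to 0.67) on GD12, -0.11 (-0.82 to 0.60) on GD15 and -0.11 (-0.82 to 0.60) on CD15, so changes of up to these bounds cannot be told from none. The ranges of all 5 neighbouring group means overlapped. The lowest TBXA2R level, 3.06 TPM, and the lowest PTGIR level, 0.479 TPM, were both in CD15M_LM of gilt 3, the library high in ribosomal protein genes.

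**Figure D4:**
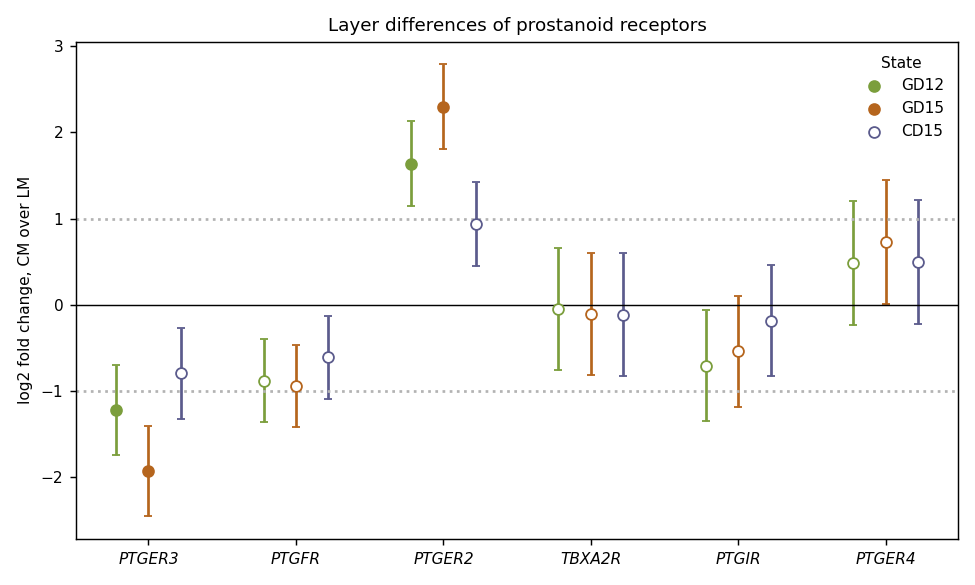
Points are log2(TPM + 1) changes of CM over LM on GD12, GD15 and CD15 for 6 receptors, bars are 95% intervals of limma and dotted lines mark the fold limit of 1. Filled points were called, which are PTGER2 at 1.64 and 2.30 and PTGER3 at -1.22 and -1.93, and the CD15 points of these genes lie nearest to 0.

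Next, it was asked whether the layer difference itself changed with the state. The PTGER2 layer difference was 1.36 ± 0.31 larger on the log2 scale on GD15 than on CD15 (95% interval 0.67 to 2.05), with an adjusted p of 0.194 over all genes. It was called with quantile normalization (1.63) and without gilt 3 of CD15 (1.61), whose LM library was high in ribosomal protein genes. With a gilt left out, 3 to 87 of all genes were called for this comparison, against 29 with none left out. The PTGER3 layer difference was more negative on GD15 than on CD15 by -1.13 ± 0.33 (95% interval -1.87 to -0.39, adjusted p = 0.331). The PTGER2 layer difference on GD12 exceeded that on CD15 by 0.70 ± 0.31 (adjusted p = 0.539). Between GD15 and GD12 the differences were 0.66 ± 0.31 for PTGER2 and -0.71 ± 0.33 for PTGER3 (adjusted p = 0.746 for each).

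No receptor was called for a difference of layer effects. The count was 0 of 6 for GD15 against GD12, with 0.0196% of all genes called. It was 0 of 6 for GD15 against CD15, with 0.189% of all genes, and 0 of 6 for GD12 against CD15, with 0.13%. At an unadjusted p of limma below 0.05 the counts were 0, 2 and 1 receptors, beside 6.94%, 9.4% and 9.22% of all genes. The layer difference of PTGER2 or PTGER3 was therefore not shown to differ between pregnant and cyclic gilts by this test. For PTGER4, PTGFR, PTGIR and TBXA2R the difference of layer effects between GD15 and CD15 lay between -0.35 and 0.23, with adjusted p of 0.695 to 0.997.

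The states were then compared within each layer, in fits of 9 libraries. In CM, 0 of 6 receptors were called on GD15 against GD12, where 0.027% of all genes were, 0 on GD15 against CD15 (0.155%) and 0 on GD12 against CD15 (0.216%). In LM the counts were 0 on GD15 against GD12 (0% of all genes), 0 on GD15 against CD15 (0.178%) and 0 on GD12 against CD15 (1.04%). Receptors with an unadjusted p below 0.05 numbered 1, 3 and 3 in CM, beside 15.5%, 15.2% and 17.7% of all genes, and 0, 1 and 4 in LM, beside 4.93%, 12% and 19.7%. The 2 pregnant days were set against the same cyclic libraries, so those comparisons share their controls. The share of all genes whose groups did not overlap was not counted, so a lack of overlap is given as a description only.

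PTGIR lay above the cyclic range in both layers on both days of pregnancy. Its pregnant CM libraries held 3.42 to 8.90 TPM on GD12 and 4.74 to 5.95 TPM on GD15, against 0.932 to 2.22 TPM in CD15M_CM. Its pregnant LM libraries held 5.87 to 10.7 TPM on GD12 and 5.49 to 10.1 TPM on GD15, against 0.479 to 3.33 TPM in CD15M_LM. By group means it was 3.17-fold higher on GD15 and 3.20-fold on GD12 in CM, and 3.65-fold and 3.87-fold in LM. On the log2 scale the differences were 1.27 ± 0.35 (adjusted p = 0.168) on GD15 and 1.17 ± 0.35 (adjusted p = 0.146) on GD12 in CM. In LM they were 1.62 ± 0.45 (adjusted p = 0.233) on GD15 and 1.69 ± 0.45 (adjusted p = 0.102) on GD12. Without CD15M_LM of gilt 3, the LM difference on GD12 was 1.19 and passed (adjusted p = 0.0283). In that comparison 2 to 1452 of all genes were called with a library left out, against 146 with none left out. Between the 2 days of pregnancy PTGIR differed by 0.09 (95% interval -0.69 to 0.88) in CM and -0.08 (-1.10 to 0.95) in LM.

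PTGER3 and PTGFR, the most abundant receptors, lay below the cyclic level in CM of pregnant gilts. For PTGER3 the log2 difference in CM was -1.64 ± 0.30 (adjusted p = 0.0831) on GD15 against CD15 and -1.43 ± 0.30 (adjusted p = 0.077) on GD12 against CD15. Its means of 26.6 TPM in GD15M_CM and 29.7 TPM in GD12M_CM stood against 80.9 TPM in CD15M_CM, with no overlap. For PTGFR the difference in CM was -1.04 ± 0.19 (adjusted p = 0.0831) on GD15 and -1.15 ± 0.19 (adjusted p = 0.0542) on GD12. Its means of 17.6 TPM in GD15M_CM and 16.0 TPM in GD12M_CM stood against 36.6 TPM in CD15M_CM, again with no overlap. These receptors sat close to the threshold. Without GD15M_CM of gilt 3, PTGER3 on GD15 passed at -1.98 (adjusted p = 0.0419), and without gilt 1, PTGFR passed at -1.20 (adjusted p = 0.0358). With a library left out, 1 to 68 of all genes were called on GD15 against CD15 in CM, against 23 with none left out. PTGFR on GD12 passed where genes under a mean of 5 TPM were left out (adjusted p = 0.0392).

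In LM neither of these receptors was called. PTGER3 had a log2 difference of -1.003 ± 0.28 (adjusted p = 0.111) on GD12 against CD15 and -0.51 ± 0.28 (adjusted p = 0.483) on GD15 against CD15. Without CD15M_LM of gilt 3 the GD12 difference was -1.25 and passed (adjusted p = 0.00403). With a library left out, 2 to 1452 of all genes were called on GD12 against CD15 in LM, against 146 with none left out. PTGFR had -0.88 ± 0.39 (adjusted p = 0.251) on GD12 and -0.70 ± 0.39 (adjusted p = 0.485) on GD15, where gilt 1 at 67.0 TPM lay above the cyclic range and the other 2 gilts below it.

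PTGER2 was spread widely on GD15. On GD15 against GD12 its log2 difference in CM was 1.36 ± 0.53 (adjusted p = 0.265), with 9.005 TPM in gilt 1 of GD15 inside the GD12 range of 7.19 to 12.4 TPM. With 1 library left out it was 0.85 to 2.06, while 1 to 355 of all genes were called, against 4 with none left out. The difference passed only without GD15M_CM of gilt 1 (2.06, adjusted p = 0.0297). Against CD15 it was 0.71 ± 0.53 (adjusted p = 0.551, 0.19 to 1.40 with 1 library left out) on GD15 and -0.65 ± 0.53 (adjusted p = 0.552) on GD12. In LM, GD12 lay below CD15 with no overlap, at -1.35 ± 0.56 (adjusted p = 0.231). PTGER4 in CM had 0.81 ± 0.41 (adjusted p = 0.39) on GD15 against GD12. TBXA2R differed by between -0.21 and 0.46 over the 6 state comparisons, with adjusted p of 0.316 to 0.991.

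**Figure D5:**
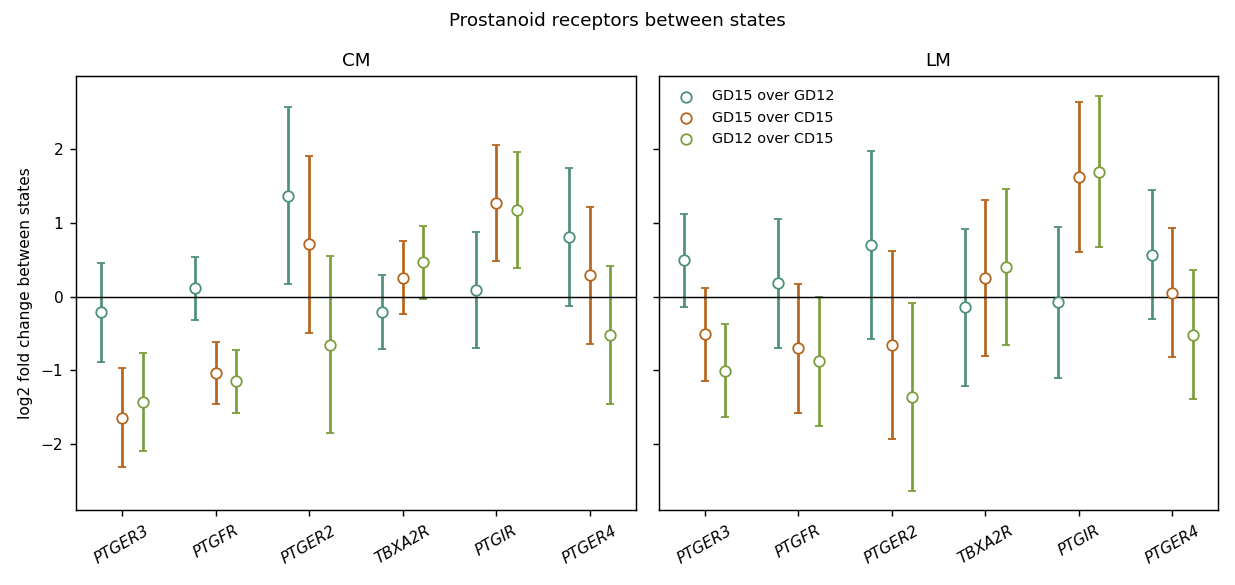
Points are log2(TPM + 1) differences between states in CM (left) and LM (right), for GD15 over GD12, GD15 over CD15 and GD12 over CD15, and bars are 95% intervals of limma. No point was called. PTGIR lies at 1.17 to 1.69 over CD15 in both panels, and PTGER3 lies at -1.64 and -1.43 over CD15 in CM.

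The genes that make, clear and answer prostanoids were counted beside their receptors. Of 10 prostanoid synthesis genes tested between the layers, 1 was called higher and 1 lower in CM on GD12, 1 higher on GD15 and 1 higher on CD15. Of all genes, 13.4%, 10.9% and 11.8% were called higher in these states and 2.43% lower on GD12. TBXAS1, thromboxane synthase, was higher in CM in each state, by 1.97 ± 0.36 on the log2 scale on GD12 (adjusted p = 0.00366), 1.27 ± 0.36 on GD15 (adjusted p = 0.0341) and 1.72 ± 0.36 on CD15 (adjusted p = 0.011). Its receptor TBXA2R was not called in any state. PTGES, an inducible prostaglandin E synthase, fell by 1.08 ± 0.27 in CM on GD12 (adjusted p = 0.0169). Its change was -0.97 ± 0.27 on CD15 (adjusted p = 0.035), under the fold limit, and -0.50 ± 0.27 on GD15 (adjusted p = 0.232). PTGES averaged 112 ± 20.5 TPM in GD12M_CM and 250 ± 106 TPM in GD12M_LM (SD, n = 3 each). PTGIS, prostacyclin synthase, averaged 80.2 to 112 TPM in the 6 groups and was not called. PTGS2, the inducible cyclooxygenase, was at 0.113 to 5.94 TPM, and PTGS1, the constitutive form, at 0.897 to 2.68 TPM.

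Of 4 breakdown and transport genes, HPGD, which inactivates prostaglandins, was called higher in CM on GD12 by 1.65 ± 0.39 (adjusted p = 0.014), where 13.4% of all genes were called higher, and none of the list was called on GD15 or CD15. It averaged 33.7 ± 16.2 TPM in GD12M_CM and 10.1 ± 4.62 TPM in GD12M_LM. PTGFRN, a membrane protein that interferes with prostaglandin F2α binding, was at 25.4 to 210 TPM, and PTGDR2, the chemoattractant receptor for prostaglandin D2, at 0.319 to 3.05 TPM. Neither was called between layers, PTGFRN was not called between states, and PTGDR2 was not called between states in LM and was under the filter in CM.

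Of 20 genes of the Gs and cyclic AMP arm, 2 were called higher and 1 lower in CM on GD12, 1 higher and 1 lower on GD15, and 4 higher on CD15. All genes were called higher at 13.4%, 10.9% and 11.8% and lower at 2.43%, 3.56% and 0.893%. ADCY7, an adenylyl cyclase, was higher in CM in each state, by 1.26, 1.02 and 1.13 on GD12, GD15 and CD15. PDE3A, which degrades cyclic AMP, was higher in CM by 3.34 ± 0.33 (adjusted p = 1.97e-04) on GD12 and 1.78 ± 0.33 (adjusted p = 0.00647) on CD15. PDE4D, of another family of phosphodiesterases, fell by 1.37 ± 0.35 (adjusted p = 0.019) on GD12 and 1.94 ± 0.35 (adjusted p = 0.00444) on GD15. The adenylyl cyclases ADCY6 and ADCY9 were each higher by 1.62 on CD15. The median of this list was 0.18, -0.04 and 0.38 on the log2 scale on GD12, GD15 and CD15, beside 0.23, 0.19 and 0.33 over all genes.

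PLCB4 and ITPR3, which act downstream of Gq, were called between the layers in each state. PLCB4, a phospholipase C that answers Gq, fell by 1.02 ± 0.22, 1.94 ± 0.22 and 1.10 ± 0.22 on GD12, GD15 and CD15. ITPR3, a calcium release channel, was higher by 1.88, 1.32 and 2.20. Of 9 desensitization genes, 3 were called higher on GD12, 1 on GD15 and 1 on CD15, beside 13.4%, 10.9% and 11.8% of all genes. RGS4, which ends Gq and Gi signals, was higher in CM by 1.74 ± 0.34 on GD12 and 1.70 ± 0.34 on GD15. RGS5, a related gene, was higher by 2.11 on GD12, and GRK3, a receptor kinase, by 1.36 on GD12 and 1.05 on CD15. Between states 1 call was made in these lists, for RGS5 in LM, which fell by 2.62 ± 0.39 on GD12 against CD15 (adjusted p = 0.0262). Smooth muscle markers were called lower in CM for 1, 4 and 0 of 7 genes on GD12, GD15 and CD15. Of all genes, 2.43%, 3.56% and 0.893% were called lower. The median change of the 7 markers was -0.99, -1.42 and -0.24 on the log2 scale, beside 0.23, 0.19 and 0.33 over all genes. The part of these markers in the lower PTGER3, PDE4D and PLCB4 was not tested.

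The genes with levels most like those of each receptor were taken by Pearson's r of log2(TPM + 1) over 18 libraries, which share layers, gilts and scaling, so r is a description only. For PTGER2 they were SLC39A8 (r = 0.93), a zinc and manganese transporter, SCIN (r = 0.92), an actin severing protein, and LRATD2 (r = 0.92). For PTGER3 they were HS3ST5 (r = 0.93), a heparan sulfate sulfotransferase, FAM13B (r = 0.92) and RASL12 (r = 0.92). For PTGFR they were IPO5 (r = 0.90), an importin, PRRX1 (r = 0.89), a mesenchymal homeobox factor, and GRIA4 (r = 0.88), a glutamate receptor subunit.

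For PTGER4 they were ZNF683 (r = 0.91), a transcription factor of resident T cells in mouse and human, ARRDC4 (r = 0.88) and FAM124B (r = 0.87). For PTGIR they were KCTD13 (r = 0.95), INSYN1 (r = 0.94) and FADS3 (r = 0.94). For TBXA2R they were MMP19 (r = 0.95), a matrix metalloproteinase, BMP1 (r = 0.92), a procollagen proteinase, and CD248 (r = 0.92), a marker of fibroblasts and pericytes. Among the receptors themselves, the pairs with the highest r were PTGER3 with PTGFR (0.86), PTGER2 with PTGER4 (0.80) and PTGIR with TBXA2R (0.67), and the lowest was that of PTGER2 with PTGFR (-0.45).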

How the data were processed

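Uterine RNA from 18 libraries was sequenced in paired reads by the authors. They used HISAT2 2.1.0 for alignment to Sscrofa11.1 and HTSeq 0.9.1 for counting. The deposited values are TPM, and the gene lengths and strand setting that the authors used for them are not given in the sources used here. Each state had 3 gilts. The p values of layers and layer effects use the spread of CM to LM differences between gilts within a state, pooled over states. Those of state comparisons use the spread between gilts of a state within a layer, pooled over states.

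Values were analyzed as log2(TPM + 1), a scale that understates changes of low genes, with limma 3.58.1 in R 4.3.3 (trended empirical Bayes). Each fit kept genes with 3 or more of its libraries at 1 TPM or above, which left 15343 genes for the 18-library fit, 14813 for CM and 14025 for LM. Layers and differences of layer effects used all 18 libraries and a gilt block, as the study paired its layers, and states on the 9 libraries of a layer without pairs. Calls needed an adjusted p (Benjamini-Hochberg) under 0.05 together with a log2 fold change above 1 in size. The deviations of same-numbered CM and LM libraries from their group means correlated at 0.19 to 0.53 in 9 of 9 pairs, against -0.44 to 0.06 for other numbers, so the numbers were taken as gilts. Coordinates are those of RefSeq models of Sscrofa11.1, matched by symbol.

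Named genes were the receptors, up to 4 called members of each pathway list per comparison with the largest change, and the 3 genes with a symbol most like each receptor. PTGS1, PTGS2, PTGIS, PTGFRN, PTGDR2 and AKR1B1 were named for their roles after their values were seen. Of the genes listed, PTGDS, ABCC4, GNAS, GNA12, KRT19, VWF, ITGA2B, GP1BA, PF4, MSLN, UPK3B and LRRN4 had no row matched by symbol and were not analysed here. The counts of a further pathway list are not reported here. The members and lists were chosen with earlier results of these data known. The procedure was tested on simulated data, which were drawn without a gilt effect and so did not test the gilt block. Alternatives were pseudocounts of 0.1 and 5, no filter, a mean of at least 5 TPM, median-ratio scaling, quantile normalization, no variance trend, no fold limit, the other choice of block, and leaving out each library or gilt. Figures were drawn with matplotlib 3.10.9.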

Additional observations from a re-analysis of the deposited data

How the results depend on the processing

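Over the alternatives run, single receptor changes kept their direction and their side of the threshold in 935 cases, passed newly in 26, were lost in 2 and turned sign in 51, none of which was a call. The choices of filter, variance trend, fold limit and block leave the fitted change as it was. Dropping the fold limit cannot undo a call. The PTGER3 calls on GD12 and GD15 and the PTGER2 call on GD15 held in all 12 alternatives run for each, at -1.48 to -1.12, -2.31 to -1.69 and 1.65 to 2.61. The cause of the other changes was not tested. Read depth is unknown from TPM, so no counting error could be attached.

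Between layers on GD12, where 2 receptors were called, 1 was called at a pseudocount of 5, 4 with quantile normalization (PTGFR and PTGIR in addition) and 1 with no replicate block. On CD15, where 0 were called, 1 was called at a pseudocount of 0.1, 2 with median-ratio scaling, 1 with quantile normalization and 2 with no minimum fold change, and 0 to 1 with a gilt left out (PTGER2 at 1.16 without gilt 1). For the layer effect of GD15 against CD15, 1 was called with quantile normalization and 0 to 1 with a gilt left out. For GD12 against CD15, 1 was called in CM at a mean of at least 5 TPM, and 2 in LM with quantile normalization. With a library left out the count was 0 to 1 on GD15 against GD12 and on GD15 against CD15 in CM, and 0 to 2 on GD12 against CD15 in LM. A replicate block on the state comparisons, where numbers do not mark the same gilt, left the count at 0 in all 6. At a mean of at least 5 TPM, PTGIR could not be fitted in CM, nor PTGER4 in LM, between layers or for layer effects, as each was under that mean.

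Signs turned as follows. With quantile normalization PTGER4 was at -0.13 on GD12 and -0.10 on CD15 between layers and at -0.13 on GD15 against CD15 in LM, PTGFR and PTGIR were at -0.00402 and -0.0302 on GD15 against GD12 in CM, and TBXA2R was at 0.0380 for the layer effect of GD15 against GD12. With median-ratio scaling PTGFR and TBXA2R were at 0.0218 and 0.0202 for that layer effect, PTGER4 was at 0.13 for the layer effect of GD12 against CD15 and at -0.0487 on GD15 against CD15 in LM. At a pseudocount of 0.1 TBXA2R was at -0.0285 for the layer effect of GD15 against CD15 and PTGER4 at 0.0204 for that of GD12 against CD15.

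With a library or gilt left out, signs turned in these ranges. For TBXA2R they were -0.21 to 0.25 on GD12, -0.19 to 0.0358 on GD15 and -0.60 to 0.25 on CD15 between layers, -0.36 to 0.11, -0.36 to 0.49 and -0.30 to 0.56 for the layer effects of GD15 against GD12, GD15 against CD15 and GD12 against CD15, and -0.32 to 0.70 and -0.18 to 0.85 on GD15 and GD12 against CD15 in LM. For PTGER4 they were -0.0161 to 0.45, -0.18 to 0.71 and -0.42 to 0.47 for the same layer effects, -0.11 to 0.69 on GD15 against CD15 in CM and -0.17 to 0.50 in LM. On GD15 against GD12 they were -0.55 to 0.0393 for PTGER3 in CM, -0.0551 to 0.26 and -0.30 to 0.48 for PTGFR in CM and LM, and -0.11 to 0.47 and -0.32 to 0.17 for PTGIR. For the layer effect of GD15 against GD12 they were -0.22 to 0.24 for PTGFR and -0.15 to 0.40 for PTGIR.

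Median-ratio scaling moved the median of all genes between layers to 0.00, 0.02 and -0.01 on GD12, GD15 and CD15, and the share of calls that were higher in CM to 70.0%, 63.3% and 75.5%, against 84.7%, 75.3% and 92.95% as deposited. Relative to the deposited medians of 0.23, 0.19 and 0.33, PTGER2 stayed higher and PTGER3 and PTGFR lower. Counts of all genes called moved by over 1.5 times in 75 cases. Over the settings other than leave-outs they ran from 1453 to 3320, 1348 to 2905 and 1183 to 2568 between layers on GD12, GD15 and CD15. With a library left out, GD12 against CD15 in LM gave 2 to 1452 and GD15 against CD15 in LM 0 to 368.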

Other observations

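Values in the GD12 columns were written with a median of 11 characters, against 16 in the GD15 and CD15 columns. GD12 libraries were deposited in the same table, so the state comparisons that hold GD12 carry this difference in format, and whether the libraries were processed together is not given in the sources used here. The 5 macrophage markers summed to 140 to 304 TPM in GD15M_CM, against 112 to 160 TPM in CD15M_CM. None of them was called on GD15 against CD15 in CM. On the log2 scale the changes were 1.52 for AIF1, 0.78 for C1QA, 0.46 for CD68, 0.10 for CSF1R and -0.65 for CD163. AKR1B1, chosen after its values were seen, which has prostaglandin F synthase activity, had a spread of 41.5 TPM (SD, n = 3) around a mean of 38.9 TPM in GD15M_CM and of 36.8 TPM around 39.1 TPM in GD15M_LM, against 17.4 ± 1.25 TPM in CD15M_CM and 20.6 ± 3.07 TPM in CD15M_LM.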
